A study of Mus musculus with 20 samples.

Results

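The genes described here are 7 Eph receptors and ephrins of crypt epithelium, taken by symbol from 2 tables of gene counts: the receptors Ephb2, Ephb3, Ephb4 and Epha2 and the ligands Efna1, Efnb1 and Efnb2. All 7 were listed in both tables, which shared 11296 genes. Of the 22 genes of the whole Eph and ephrin family 13 were listed in both tables, and Epha3, Epha5, Epha6, Epha7, Epha8, Epha10, Ephb1, Ephb6 and Efna5 were listed in neither and are not analysed here. The samples were 20 RNA-seq libraries of sorted small-intestinal epithelial cells from C57BL/6J mice aged 8 weeks, all carrying Lgr5-GFP, a reporter of the stem cell gene Lgr5. Mice were Itgb7-/- (KO; numbers 2, 3, 4, 5 and 6) or Itgb7+/+ (WT; numbers 1, 3, 6, 7 and 8), so they differed in integrin beta 7, a subunit used by gut-homing lymphocytes. Cells gated as EpCAM+ and negative for CD45, CD31 and TER119 were sorted as GFP-low, named transit-amplifying cells in the labels, and as GFP-high, named stem cells. Libraries with the same genotype and number were taken to come from one mouse. This gave 5 libraries each of KO GFP-low, WT GFP-low, KO GFP-high and WT GFP-high cells.

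Eph receptors are receptor tyrosine kinases whose ligands, the ephrins, are themselves bound to the membrane of the neighbouring cell, so that contact sends signals into both cells and commonly drives them apart. Ephrin-A ligands are held by a lipid anchor and mostly bind EphA receptors. Ephrin-B ligands span the membrane and mostly bind EphB receptors. In the intestine EphB2 and EphB3 are known as Wnt target genes of the crypt base and ephrin-B1 and ephrin-B2 as ligands of the upper crypt and villus, an opposition that keeps cell positions in order, with Paneth cells misplaced where EphB3 is lost.

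Total counts ran from 20900412 to 27838403 per library. Lgr5 itself averaged 7.00 ± 2.38 CPM in KO GFP-low and 12.9 ± 6.71 CPM in WT GFP-low cells, against 105 ± 11.2 CPM in KO GFP-high and 102 ± 20.0 CPM in WT GFP-high cells (mean ± SD, n = 5; CPM, counts scaled to library size by TMM over the 20 libraries). Itgb7 is not analysed here, being in neither table, and the genotypes rest on the labels alone. GFP-low libraries also held more transcripts of differentiated cells: 15 Paneth cell markers summed to 26010 to 130949 CPM in KO GFP-low and 62485 to 271137 CPM in WT GFP-low libraries, against 18763 to 46684 CPM in KO GFP-high and 15520 to 62076 CPM in WT GFP-high libraries. For 10 enterocyte markers the sums were 1596 to 2602, 2193 to 3835, 405 to 671 and 459.8 to 552 CPM, for 9 goblet markers 25739 to 56024, 30604 to 76369, 2455 to 4663 and 2343 to 5963 CPM, in the same order of groups. The 10 enteroendocrine markers in both tables were all higher in GFP-low cells of both genotypes, as were 6 of 7 tuft markers in KO and 7 of 7 in WT mice. Of 7 general epithelial genes 4 were higher and 1 lower in both. In such bulk samples fewer cells of a type and less RNA per cell cannot be told apart. Of 13 markers of stroma and endothelium only Vim was listed, at 14.2 to 29.6 CPM in KO GFP-low, 10.1 to 32.8 CPM in WT GFP-low, 1.55 to 4.04 CPM in KO GFP-high and 1.92 to 6.90 CPM in WT GFP-high libraries. The endothelial genes Pecam1, Kdr, Cdh5 and Tek were in neither table, and neither holds a gene averaging under 16.8 counts. Vessels use Ephb4 and Efnb2, and the part of vessel cells in their levels was not tested. Of 15 leukocyte markers 3 were listed in both tables, with Ptprc and Cd3e in neither, and of these 0 passed in KO and 1 in WT mice, as higher in GFP-low cells. Their sums were 20.7 to 45.1 CPM in KO GFP-low, 15.2 to 28.6 CPM in WT GFP-low, 18.7 to 41.1 CPM in KO GFP-high and 12.9 to 27.7 CPM in WT GFP-high libraries.

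Promoters of 4 genes are shown because their genes carry the contrast between populations: Ephb2 and Ephb3 were lower, Efnb2 higher, and Epha2 higher within each mouse, in GFP-low cells. Each run gives the 200 bases from 250 to 51 bases before the RefSeq start site on GRCm38.p6, 5′ to 3′ in the direction of the gene. Capitals mark the TCF/LEF core CTTTGA or its other strand TCAAAG, the sequence through which Wnt signals act, and matches do not overlap another motif searched.
Ephb2: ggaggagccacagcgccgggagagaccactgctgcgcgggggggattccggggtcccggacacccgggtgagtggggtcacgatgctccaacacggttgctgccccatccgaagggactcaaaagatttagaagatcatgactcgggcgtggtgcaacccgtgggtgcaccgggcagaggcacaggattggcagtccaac
Ephb3: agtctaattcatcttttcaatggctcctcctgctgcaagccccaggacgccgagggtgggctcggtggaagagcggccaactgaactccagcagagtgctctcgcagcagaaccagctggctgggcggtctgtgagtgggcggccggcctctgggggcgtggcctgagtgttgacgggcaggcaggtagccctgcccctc
Epha2: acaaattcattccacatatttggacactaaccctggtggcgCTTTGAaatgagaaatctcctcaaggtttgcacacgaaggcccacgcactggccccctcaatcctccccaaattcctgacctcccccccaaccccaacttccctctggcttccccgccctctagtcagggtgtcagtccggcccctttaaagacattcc
Efnb2: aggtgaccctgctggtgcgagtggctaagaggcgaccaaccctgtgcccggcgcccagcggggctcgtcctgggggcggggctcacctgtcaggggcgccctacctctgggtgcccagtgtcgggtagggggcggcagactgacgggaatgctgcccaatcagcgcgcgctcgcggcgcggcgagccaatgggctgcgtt
The stretches lie at chr4:136836063-136836262 (minus strand), chr16:21204545-21204744 (plus strand), chr4:141300971-141301170 (plus strand) and chr8:8661293-8661492 (minus strand). All 7 genes matched by symbol, with 8 windows of 300 bases (250 before to 50 after the start; Efna1 has 2). The core was found in 1 of them, that of Epha2, 209 bases before the start, while 16.0% of 32851 mouse windows of that length held it. A match is a description of letters only, and its lack in the other windows says nothing of TCF binding there or elsewhere.

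The first comparison set GFP-low against GFP-high cells within each genotype. Without pairing, the 3 EphB receptors fell in both genotypes, the ligand Efnb2 rose several-fold, and Efnb1 rose in KO mice. A replicate block that pairs the populations of a mouse also called Efnb1 higher in WT mice and Epha2 higher in both genotypes. The counts that follow are without it. In edgeR, at an adjusted p under 0.05, 6 of 7 members passed in KO mice (2 higher and 4 lower), where 50.5% of 11294 genes passed (26.2% higher and 24.4% lower). In WT mice 4 of 7 passed (1 higher and 3 lower), where 43.4% of 11293 genes passed (22% higher and 21.4% lower). The median log2 fold change of the 7 members was -0.38 in KO and -0.14 in WT mice, beside -0.01 for all genes in both. Where groups are said not to overlap, between populations or genotypes, the share of all genes so separated was not counted. Such separation is therefore not shown to be particular to the members.

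**Figure D1:**
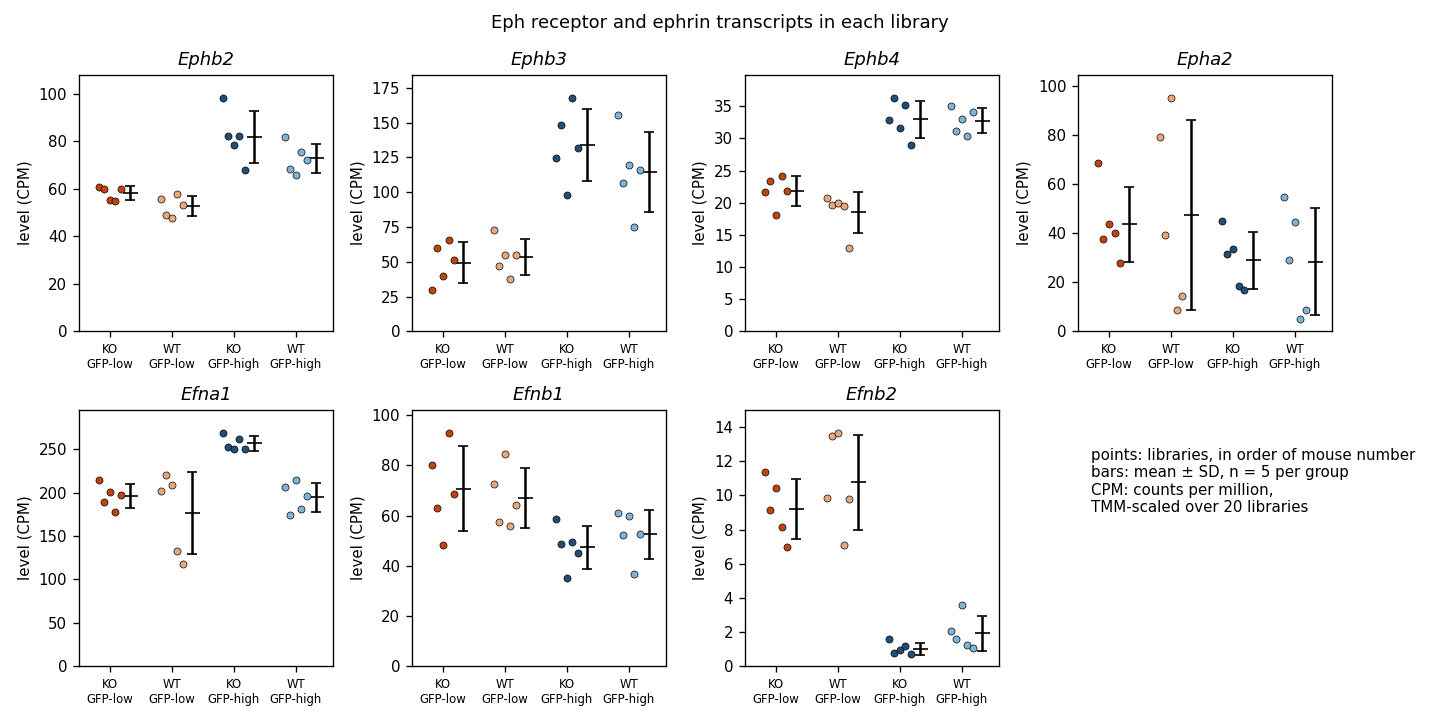
Level of each of the 7 genes in CPM (vertical axes, from 0) in the 5 libraries of each group, with mean ± SD at the right of the points. Ephb2, Ephb3 and Ephb4 are lower, and Efnb2 higher, in every GFP-low library than in every GFP-high library of the same genotype, while Epha2 spans 8.79 to 95.1 CPM in WT GFP-low and 4.92 to 54.9 CPM in WT GFP-high cells.

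Ephb3 (chr16:21204755-21223305, plus strand, GRCm38), the receptor on which Paneth cell position depends, showed the largest fall of the 3 EphB receptors. In order of mouse number its level was 30.0, 60.2, 39.5, 66.0 and 51.1 CPM in KO GFP-low cells, against 124, 148, 97.7, 168 and 132 CPM in KO GFP-high cells. In WT mice it was 72.8, 47.0, 54.6, 37.9 and 55.1 CPM in GFP-low cells, against 156, 107, 119, 75.0 and 116 CPM in GFP-high cells. The groups did not overlap in either genotype, and every mouse had less in GFP-low cells. Of all genes 50.5% passed between populations in KO and 43.4% in WT mice. The log2 fold change was -1.43 ± 0.20 in KO mice (SE; edgeR adjusted p = 4.52e-05) and -1.10 ± 0.19 in WT mice (adjusted p = 0.000711). Summed Paneth markers were higher in GFP-low libraries, so Ephb3 and that list moved in opposite directions, and the part of Paneth cells in the Ephb3 levels was not tested.

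Ephb2 (chr4:136647539-136835988, minus strand), the receptor most used to grade cells along the crypt axis, fell less. KO GFP-low cells had 60.7, 60.1, 55.5, 54.9 and 59.9 CPM, against 98.2, 82.1, 78.5, 82.3 and 67.9 CPM in KO GFP-high cells. WT GFP-low cells had 55.7, 49.1, 47.9, 57.8 and 53.4 CPM, against 81.8, 68.4, 66.1, 75.7 and 72.2 CPM in WT GFP-high cells. Again no library of one population reached the other in the same genotype, but the gap was small: the log2 fold change was -0.48 ± 0.10 in KO (edgeR adjusted p = 0.000937) and -0.46 ± 0.09 in WT mice (adjusted p = 0.00158). By comparison Axin2, the feedback inhibitor often read as a gauge of Wnt signalling, changed by -2.33 ± 0.10 in KO and -1.97 ± 0.16 in WT mice on the same scale. Of the 13 Wnt target genes listed in both populations, those that fell numbered 12 in KO and 11 in WT mice and 0 rose, with medians of -1.66 and -1.76. Of all genes 24.4% were lower in KO and 21.4% in WT mice. The list holds Lgr5, whose reporter set the sort, so its fall followed from the sort and the list is no independent gauge. The falls of Ephb2 were thus smaller than those medians, and those of Ephb3 lay between Ephb2 and the list.

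Ephb4 (chr5:137350109-137378669, plus strand), known as a receptor for ephrin-B2 in vessels, was also lower in GFP-low cells. It averaged 21.8 ± 2.33 CPM in KO GFP-low and 33.0 ± 2.91 CPM in KO GFP-high cells, a log2 fold change of -0.58 ± 0.10 (edgeR adjusted p = 0.00031). In WT mice it averaged 18.5 ± 3.18 CPM in GFP-low and 32.8 ± 1.93 CPM in GFP-high cells, a log2 fold change of -0.82 ± 0.13 (adjusted p = 0.000281). The lowest library was that of WT mouse 8 in GFP-low cells, at 12.9 CPM, and without it the WT log2 fold change was -0.72.

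Efnb2 (chr8:8617434-8661242, minus strand), a transmembrane ligand of EphB receptors, moved the most of the 7 genes. KO GFP-low cells had 11.3, 9.16, 10.4, 8.13 and 6.99 CPM, against 1.57, 0.755, 0.922, 1.16 and 0.743 CPM in KO GFP-high cells. WT GFP-low cells had 9.83, 13.5, 13.7, 7.08 and 9.77 CPM, against 2.08, 1.61, 3.6, 1.26 and 1.06 CPM in WT GFP-high cells. The GFP-high levels rested on 18 to 39 counts per library in KO and 27 to 90 in WT mice, and the GFP-low levels on 160 to 253 and 141 to 308 counts. All GFP-low libraries lay above all GFP-high libraries. The log2 fold change was 3.17 ± 0.23 in KO (9.0-fold; edgeR adjusted p = 2.25e-07) and 2.49 ± 0.32 in WT mice (5.61-fold; adjusted p = 6.41e-05). Of 10 enterocyte markers 9 rose beside it in both genotypes, as did Vim. So did all 15 Paneth, all 9 goblet and all 10 enteroendocrine markers. The part of any of these cell types in the Efnb2 rise was not tested.

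Efnb1 (chrX:99136130-99148991, plus strand), the other transmembrane ligand, rose modestly. It averaged 70.7 ± 16.9 CPM in KO GFP-low and 47.4 ± 8.55 CPM in KO GFP-high cells, with a log2 fold change of 0.59 ± 0.16 (edgeR adjusted p = 0.00819). In WT mice it averaged 66.9 ± 11.9 CPM in GFP-low and 52.5 ± 9.71 CPM in GFP-high cells, and the log2 fold change of 0.35 ± 0.15 did not pass (adjusted p = 0.0788). Within a mouse the GFP-low level was the higher one in 5 of 5 KO and 5 of 5 WT mice, and with the replicate block that pairs the populations of a mouse the WT change passed as well (0.35 ± 0.09; adjusted p = 0.0074). Scaled by library totals alone, which shifts the median of all genes to -0.27 in KO and -0.37 in WT mice, the Efnb1 change was 0.33 in KO (adjusted p = 0.122) and 0.01 in WT mice (adjusted p = 0.953), so its rise is relative to that shift.

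**Figure D2:**
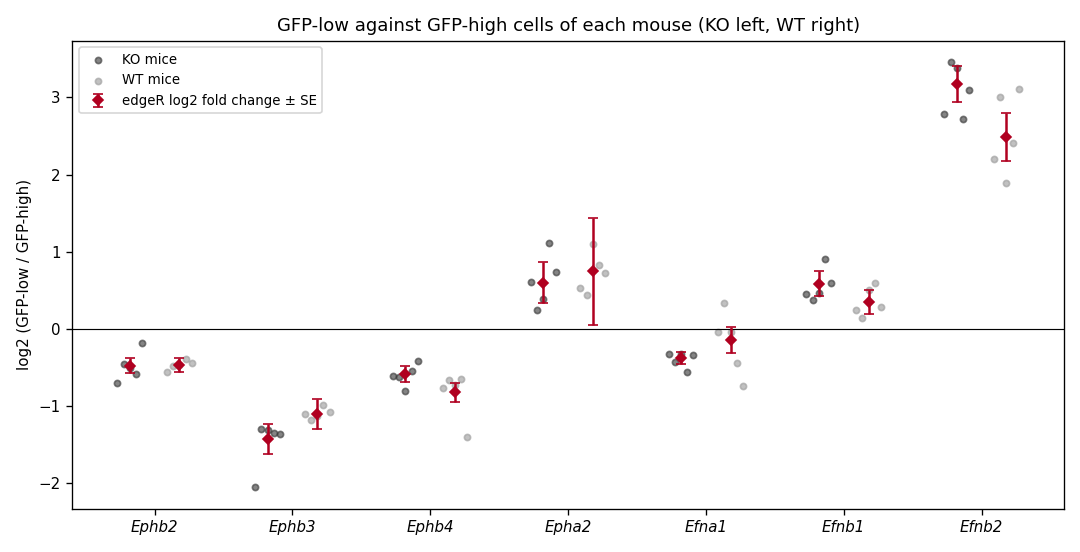
Log2 ratio of the GFP-low to the GFP-high level (vertical axis) for each gene, with a point per mouse (KO at the left and WT at the right of each gene) and the edgeR log2 fold change ± SE without pairing as a diamond. All 10 mice lie below 0 for Ephb2, Ephb3 and Ephb4 and above 0 for Epha2, Efnb1 and Efnb2.

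The ratio of ephrin-B ligands to their EphB receptors changed accordingly. Per kilobase of merged exon, summed Efnb1 and Efnb2 over summed Ephb2 and Ephb3 was 2.67, 1.42, 1.5, 1.97 and 1.68 in KO GFP-low libraries, against 0.651, 0.493, 0.492, 0.456 and 0.524 in KO GFP-high libraries. It was 1.46, 1.70, 2.20, 1.67 and 1.60 in WT GFP-low libraries, against 0.602, 0.715, 0.768, 0.625 and 0.665 in WT GFP-high libraries. Every GFP-low library stood above 1 and every GFP-high library below it, so that on this scale transcripts of the ligands outnumbered those of the receptors in GFP-low but not GFP-high cells. Without division by length all 4 group means were below 1 (0.749 in KO GFP-low, 0.735 in WT GFP-low, 0.225 in KO GFP-high and 0.291 in WT GFP-high). Within a mouse the ratio was 2.88 to 4.32 times as high in GFP-low as in GFP-high cells of KO mice, and 2.37 to 2.87 times in WT mice. These ratios are a description and carry no test.

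**Figure D3:**
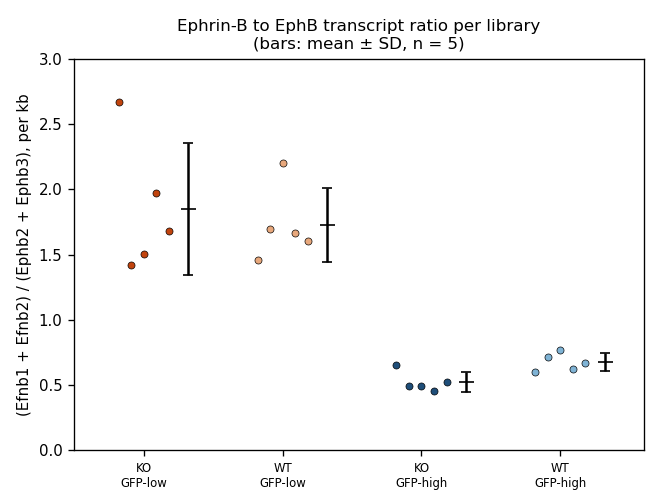
Ratio of summed Efnb1 and Efnb2 to summed Ephb2 and Ephb3, each level per kilobase of exon (vertical axis, from 0), in each library, with mean ± SD of 5 libraries. The means are 1.85 ± 0.505 in KO GFP-low, 1.73 ± 0.282 in WT GFP-low, 0.523 ± 0.0755 in KO GFP-high and 0.675 ± 0.0672 in WT GFP-high cells.

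Efna1 (chr3:89271733-89281142, minus strand), a lipid-anchored ligand of EphA receptors including EphA2, was the most abundant member per kilobase in all 4 groups. It stood at 107 ± 7.51 CPM per kilobase in KO GFP-low, 96.4 ± 25.9 in WT GFP-low, 140.1 ± 4.52 in KO GFP-high and 106 ± 9.25 in WT GFP-high cells (SD, n = 5), with no library of another member in its range. Below it in GFP-low cells came Efnb1, Epha2 and Ephb3, whose ranges overlapped from one to the next. In GFP-high cells Ephb3 and Efnb1 followed, overlapping each other and lying above Ephb4 and Ephb2 in every library. Epha2 lay below both in KO GFP-high cells and overlapped both in WT GFP-high cells. Ephb4 and Ephb2 were close to each other and overlapped in all groups but WT GFP-high, at 4.70 and 4.62 CPM per kilobase on average in KO GFP-low cells, for example. Efnb2 was the least abundant on average in every group, at 1.34 and 1.57 CPM per kilobase in KO and WT GFP-low cells and 0.15 and 0.28 in KO and WT GFP-high cells. The largest change between populations therefore belonged to the member of lowest level.

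Between populations Efna1 was lower in GFP-low cells of KO mice, at 215, 189, 200.3, 178 and 197 CPM, against 269, 253, 249.7, 261 and 249.8 CPM in GFP-high cells. In WT mice it was 202, 221, 208, 133 and 117 CPM in GFP-low cells, against 207, 174, 215, 181 and 196 CPM in GFP-high cells. The KO groups did not overlap, whereas in WT mice 3 GFP-low libraries lay within or just above the GFP-high range and those of mice 7 and 8 lay below it. The log2 fold change was -0.38 ± 0.08 in KO (edgeR adjusted p = 0.000897) and -0.14 ± 0.17 in WT mice (adjusted p = 0.516). With library totals alone the WT change was -0.49 (adjusted p = 0.0402).

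Epha2 (chr4:141301240-141329384, plus strand), the EphA receptor best known from epithelial injury and carcinomas, varied more between mice than between populations. KO GFP-low cells had 68.7, 37.5, 43.7, 40.3 and 27.9 CPM, against 45.0, 31.6, 33.5, 18.6 and 16.7 CPM in KO GFP-high cells. WT GFP-low cells had 79.4, 39.5, 95.1, 8.79 and 14.2 CPM, against 54.9, 29.0, 44.4, 4.92 and 8.55 CPM in WT GFP-high cells. Mice 7 and 8 of the WT group were low in both populations and mice 1 and 6 were high in both, so that the groups overlapped widely. Without pairing the change did not pass in KO (0.60 ± 0.27; edgeR adjusted p = 0.0771) or WT mice (0.75 ± 0.69; adjusted p = 0.404). Leaving out 1 library at a time, the KO change passed without the GFP-high library of mouse 2 (0.81; adjusted p = 0.0199) or the GFP-low library of mouse 6 (0.72; adjusted p = 0.0412), and the WT change ran from 0.33 to 1.14 without passing. With the replicate block, which compares populations within a mouse, Epha2 rose by 0.63 ± 0.12 in KO (adjusted p = 0.000563) and 0.73 ± 0.11 in WT mice (adjusted p = 0.000328), the GFP-low level being the higher one in 10 of 10 mice. With the block 7 of 7 members then passed in KO and 6 of 7 in WT mice, where 57.2% and 51.8% of all genes did.

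Epha2 varied alike in both populations of a mouse. Across the 10 mice its log2 level in GFP-low cells followed that in GFP-high cells, with Pearson's r = 0.966 (permutation p = 8.00e-05; adjusted over 7 relations 0.00056) and Spearman's rho = 0.915 (permutation p = 0.0005; adjusted 0.0035). Without the 2 mice farthest from the median GFP-high level r was 0.863. Within each genotype there were only 5 mice, too few for a value of their own, and after centring by genotype r was 0.966. The highest mouse had 10.8 times the Epha2 level of the lowest in GFP-low cells and 11.2 times in GFP-high cells, against 1.27 and 1.49 times for Ephb2. For Ephb2, Ephb3, Efnb1 and Efnb2 r ran from 0.629 to 0.704 and did not pass after adjustment (adjusted permutation p = 0.0588 each). For Efna1 r was 0.376 (adjusted permutation p = 0.341) and for Ephb4 0.0976 (adjusted permutation p = 0.775). The labels give no sex, cage, sort day or library batch of the mice.

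**Figure D4:**
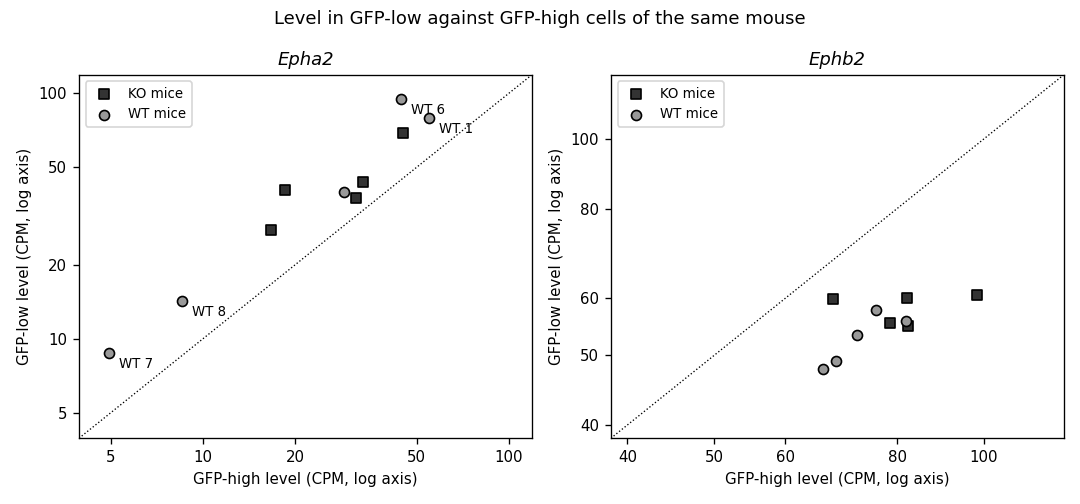
GFP-low level (vertical) against GFP-high level (horizontal) of the same mouse in CPM on log axes for Epha2 and Ephb2, with the dotted line where both are equal; squares are KO and circles WT mice. All 10 mice lie above the line for Epha2, where WT mice 7 and 8 are the lowest in both populations, and all lie below it for Ephb2, which spreads little.

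Over the 20 libraries, the genes closest in log2 level differed from member to member. For Epha2 they were Hbegf (r = 0.970), an EGF receptor ligand, Pmaip1 (r = 0.968), a proapoptotic BCL2 family protein, and the polarity protein Pard6b (r = 0.950). These correlations were as close after centring each gene by group (0.969, 0.966 and 0.963). Efnb1 was closest to genes of the actin cytoskeleton and cell junctions, Vasp (r = 0.955), Actn4 (r = 0.951) and Evpl (r = 0.930). Ephb2 was closest to the condensin subunits Ncapd2 (r = 0.940) and Ncaph (r = 0.927) and to Ube2t (r = 0.930), with correlations of 0.655, 0.590 and 0.631 within groups. For Ephb3 the closest genes were Evl (r = 0.967), an Ena/VASP actin regulator, Cbx6 (r = 0.938) and Dmpk (r = 0.932). Ephb4 had Hmga1 (r = 0.950), the ephrin Efna4 (r = 0.950) and Mnx1 (r = 0.948), and Efnb2 had Ceacam18 (r = 0.975), St3gal4 (r = 0.973) and Ces1f (r = 0.972). Efna1 had lower values over all libraries, the nearest genes being Rsad1 (r = 0.826), H2-Aa (r = 0.817) and Elk1 (r = 0.817). Within groups its correlations were 0.755, 0.635 and 0.615, no weaker as a set than those of Ephb2. These correlations describe 20 libraries that fall into 4 groups, share 10 mice and were picked from all genes as the highest.

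Among themselves the EphB receptors rose and fell together across the 20 libraries (r = 0.763 for Ephb2 with Ephb3, 0.837 for Ephb2 with Ephb4 and 0.833 for Ephb3 with Ephb4) and ran opposite to Efnb2 (r = -0.858, -0.834 and -0.844 for Ephb2, Ephb3 and Ephb4). Once each gene was centred by group these values were -0.014, 0.178 and 0.354 among the receptors and -0.007, 0.087 and 0.069 with Efnb2. The strong values over all libraries thus describe mainly the difference between the sorted populations.

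The remaining 6 listed family genes showed no split of falling receptors and rising ligands between populations. Ligands and a receptor fell, and another receptor rose. The ligand Efna4 fell in both genotypes, to 8.64 ± 1.48 CPM in KO GFP-low cells, against 23.9 ± 1.54 CPM in KO GFP-high cells (-1.45 ± 0.12; edgeR adjusted p = 6.97e-07), and to 5.98 ± 1.90 CPM in WT GFP-low cells, against 21.0 ± 3.58 CPM in WT GFP-high cells (-1.80 ± 0.22; adjusted p = 4.19e-05). Efna4, Efna3 and Efna1 lie close together on chromosome 3. The receptor Epha4 fell by 1.58 ± 0.20 in KO and 1.47 ± 0.20 in WT mice on the log2 scale, and the ligand Efna3 fell by 0.95 ± 0.23 and 0.91 ± 0.28. The receptor Epha1 rose by 0.35 ± 0.12 in KO and 0.50 ± 0.15 in WT mice. Efna2 (0.44 ± 0.30 and 0.62 ± 0.63) and Efnb3 (-0.49 ± 0.49 and -0.03 ± 0.45) did not pass, with 3.52 to 5.39 and 1.08 to 1.75 CPM as group means. With the replicate block Efna2 passed in KO mice (0.52 ± 0.20; adjusted p = 0.0413).

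Among 43 signalling partners of Eph receptors 40 were in both tables. In KO mice 6 were higher, 10 lower and 24 did not pass, where 50.5% of all genes passed. In WT mice 7 were higher, 8 lower and 25 did not pass, where 43.4% of all genes passed. The partners thus passed no more often than genes in general. The medians were -0.09 in KO and -0.04 in WT mice. The partners with the smallest p in one or both genotypes included 4 that fell: Ngef, the exchange factor ephexin that binds Eph receptors (-1.13 ± 0.08 in KO and -1.03 ± 0.14 in WT mice), Vav3 (-2.07 ± 0.28 and -2.42 ± 0.31), the Rac exchange factor Tiam1 (-1.25 ± 0.17 and -1.35 ± 0.23) and the adaptor Grb7 (-1.08 ± 0.09 and -1.22 ± 0.11). Stat3, a transcription factor, was among them in WT mice and rose in both (0.83 ± 0.13 and 0.87 ± 0.11). Other exchange factors on the list, given after their values were seen, went various ways: Kalrn did not pass in KO mice (0.32 ± 0.24) and rose in WT mice (1.55 ± 0.33), Itsn1 fell in both (-0.41 ± 0.14 in KO and -0.55 ± 0.11 in WT mice), Rapgef1 fell in KO mice (-0.44 ± 0.10) and did not pass in WT mice (-0.15 ± 0.13), and Vav2 and Itsn2 passed in neither.

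The second comparison set KO against WT mice within each population. No member passed in edgeR in either, where 0% of 11745 genes passed in GFP-high and 0.00849% of 11778 genes in GFP-low cells. At an unadjusted p under 0.05, 1150 genes passed in GFP-high and 744 in GFP-low cells, among them Efna1 and Efnb2 in GFP-high cells. DESeq2 called 1 member in GFP-high and 0 in GFP-low cells.

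Efna1, the EphA ligand, was the member with the smallest p. KO GFP-high cells had 249.7 to 269 CPM, against 174 to 215 CPM in WT GFP-high cells, and the groups did not overlap. Efna1 was picked by its p, and the share of all genes so separated was not counted. The log2 fold change was 0.40 ± 0.08, which ranked 11 by p among all genes with an edgeR adjusted p of 0.163. DESeq2 called it (0.39; adjusted p = 0.00172), where it called 50 genes higher and 95 lower in all, or 1.23% of those tested. Over the edgeR alternatives and with each library left out the change was 0.36 to 0.44 and the adjusted p 0.102 to 0.534. The value of 0.534 came from the replicate block, which between genotypes rests on only those mice whose number occurs in both genotypes. They are different animals, so that value is no test of the whole groups. With each library left out the edgeR adjusted p was 0.102 to 0.371. In GFP-low cells KO libraries had 178 to 215 CPM, against 117 to 221 CPM in WT libraries, a log2 fold change of 0.15 ± 0.16 (adjusted p = 0.914), with the 2 WT libraries under the KO range being those of mice 7 and 8.

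Efnb2 in GFP-high cells had 0.743 to 1.57 CPM in KO and 1.06 to 3.6 CPM in WT mice, a log2 fold change of -0.89 ± 0.37 (edgeR adjusted p = 0.438). WT mouse 6 was the highest at 3.6 CPM, and without it the change was -0.54. The groups overlapped, and in GFP-low cells the change was -0.23 ± 0.19 (adjusted p = 0.886).

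None of the 3 EphB receptors passed between genotypes. Ephb2 changed by 0.14 ± 0.09 in GFP-low and 0.17 ± 0.10 in GFP-high cells (edgeR adjusted p = 0.854 and 0.618). Ephb3 changed by -0.11 ± 0.21 and 0.23 ± 0.17 (adjusted p = 0.959 and 0.728), and Ephb4 by 0.23 ± 0.14 and 0.01 ± 0.09 (adjusted p = 0.827 and 0.981). Their SE was 0.09 to 0.21, whereas for Epha2 it was 0.51 in both populations, with changes of -0.12 in GFP-low and 0.04 in GFP-high cells. Efnb1 changed by 0.08 ± 0.17 and -0.14 ± 0.15. Among the 42 and 41 partner genes tested in GFP-high and GFP-low cells 0 passed, and likewise 0 of 6 further family genes.

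**Figure D5:**
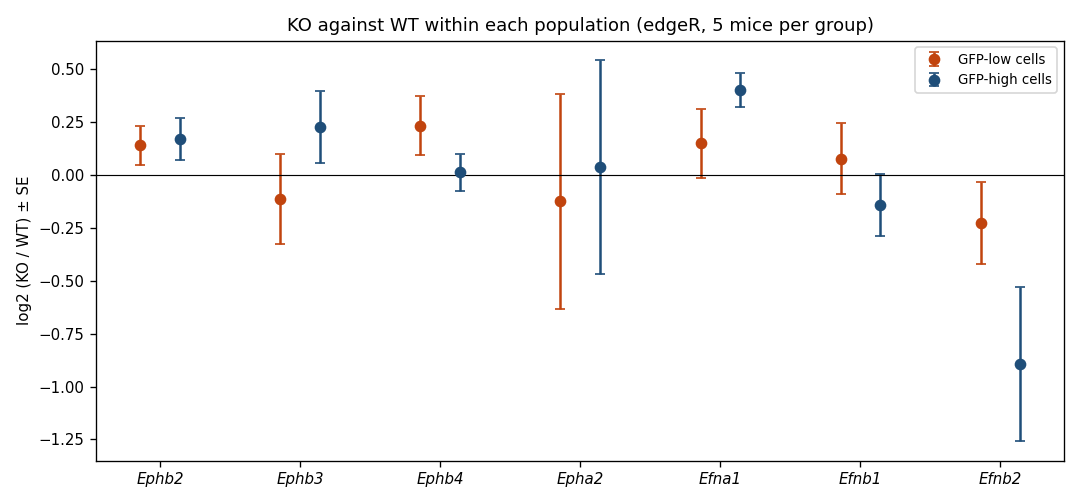
Log2 fold change of KO over WT ± SE (vertical axis) for each gene in GFP-low and GFP-high cells, from edgeR with 5 mice per group. The largest positive value is that of Efna1 in GFP-high cells (0.40 ± 0.08) and the largest negative one that of Efnb2 in GFP-high cells (-0.89 ± 0.37), and no gene passes after adjustment.

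The last comparison asked whether the genotype effect differed between populations. In edgeR 0 of 11296 genes (0%) and 0 of 7 members passed, with 353 genes at an unadjusted p under 0.05 and 0 genes called by DESeq2. The largest differences among members were 0.67 ± 0.40 for Efnb2 and -0.34 ± 0.30 for Ephb3 (adjusted p = 0.9999 for both). Per mouse, Ephb3 changed by -2.05 to -1.30 on the log2 scale between GFP-low and GFP-high cells of KO mice. In WT mice it changed by -1.18 to -0.98. These ranges did not overlap, but Ephb3 was picked after its difference was seen. The share of all genes with such ranges was not counted. With the replicate block the Ephb3 difference was -0.38 ± 0.14 (edgeR unadjusted p = 0.0146, adjusted p = 0.677). Efnb2 changed by 2.72 to 3.46 per KO mouse and 1.90 to 3.11 per WT mouse, which overlapped, and its blocked difference was 0.62 ± 0.29 (adjusted p = 0.719).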

How the data were processed

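The members and gene lists were chosen with earlier results of these data known. The authors deposited estimated counts per gene in 2 tables, one for each sorted population, with no gene averaging under 16.8 counts in either. Per the submitters' processing notes TopHat2, RSEM, Bowtie2 and mm10 were used; their versions, roles and any use of strand were not given in the sources used here. Of the values 13.7% in each table were not whole, and all were rounded. Genes that share reads with close copies or overlap others may be split between entries. edgeR 4.0.16 (TMM, filterByExpr with a minimum count of 10, quasi-likelihood test, Benjamini-Hochberg threshold of 0.05) in R 4.3.3 was run on all genes, one fit per comparison; SE is the size of the log2 fold change divided by the square root of F. Levels are CPM scaled by TMM over all 20 libraries, so that levels and comparisons between GFP-low and GFP-high cells span 2 tables that hold the same unit. Lengths are merged exons of GENCODE M21 (GRCm38). Promoters are from RefSeq on GRCm38.p6. DESeq2 1.42.0, other scalings, no count filter, the replicate block and leaving out each library were alternatives. GFP-low and GFP-high libraries that share a genotype and number in the labels were taken as one mouse, since their deviations from the group means correlated in all 10 pairs (r = 0.169 to 0.625). Pairs of different numbers within a genotype gave r = -0.40 to 0.175, a range that includes the lowest same-number value. For each GFP-low library the highest r was that with the same number. KO and WT mice that share numbers 3 and 6 differ in genotype and so are different animals. The labels do not say outright that each number is a mouse; if it is not, p-values measure only the spread between these samples. Each library held 20900412 to 27838403 counts, and among members Efnb2 in GFP-high cells had the fewest, 18 to 90. Named genes were the members, the other family genes, the 4 partners with the smallest p per comparison and the 3 genes most like each member. Only the edgeR fits without the replicate block were tested on simulated data, in which libraries shared no mouse. The replicate block, DESeq2 and the permutation p-values were not tested so.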

Additional observations from a re-analysis of the deposited data

Results flagged for a closer look

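In groups of 5 libraries the level of each of the 13 listed Eph and ephrin genes and the ligand to receptor ratio were looked over for a library far from the others. Of 56 such groups 2 held one, where chance gives about 1 in 20. Ephb4 in WT GFP-low cells was 12.9 CPM in mouse 8, against 19.4 to 20.7 CPM in the other WT GFP-low libraries. Efna2 in KO GFP-low cells was 3.28 CPM in mouse 6, against 5.57 to 6.24 CPM in the other KO GFP-low libraries.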

How the results depend on the processing

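For GFP-low against GFP-high cells no member changed direction under any alternative run. The replicate block that pairs the populations of a mouse added Epha2 in KO (0.63) and Epha2 and Efnb1 in WT mice (0.73 and 0.35) and changed no other call of a member. With library totals alone 1778 genes were higher and 4738 lower in KO, and 1188 higher and 4895 lower in WT mice, against 2956 higher and 2751 lower in KO and 2479 higher and 2422 lower in WT mice with TMM. The number of members called with each library left out was 6 to 7 in KO mice, 4 in WT mice and 0 in the genotype comparisons and their difference. For KO against WT GFP-high cells DESeq2 called 1 member, Efna1, against 0 in edgeR. It called 50 genes higher and 95 lower in all, and the replicate block called 35 and 87. In GFP-low cells DESeq2 called 1 and 11, and the block 7 and 29, against 0 and 1 in edgeR. For these comparisons the block rests on only those mice whose number occurs in both genotypes, which are different animals. Each other mouse takes up a block of its own. The calls and changes with the block therefore describe only the mice with shared numbers and are no check of the whole groups. Between genotypes, where no member was called in edgeR, signs turned as follows. With the block, which rests on the mice with shared numbers only, Epha2 was -0.63 in GFP-high cells. Ephb3, Efna1 and Efnb1 were 0.136, -0.145 and -0.0786 with it in GFP-low cells. With library totals alone Ephb3 in GFP-low cells was 0.0111 and the Ephb2 difference between populations 0.0808. With each library left out, Epha2 ran from -0.23 to 0.43 and Ephb4 from -0.0337 to 0.0576 in GFP-high cells, and Ephb3 from -0.24 to 0.0245, Efnb1 from -0.0421 to 0.18 and Epha2 from -0.39 to 0.30 in GFP-low cells. The differences between populations ran from -0.0866 to 0.0481 for Ephb2 and from -0.54 to 0.26 for Epha2. The cause was not tested. The ligand to receptor ratio without division by length was 0.749 in KO GFP-low, 0.735 in WT GFP-low, 0.225 in KO GFP-high and 0.291 in WT GFP-high cells. By the longest coding transcript, a choice made after seeing the data, it was 1.54, 1.43, 0.416 and 0.538, and with each library left out 1.64 to 1.95, 1.61 to 1.79, 0.491 to 0.540 and 0.652 to 0.693 in the same order. Depth limits Efnb2 in GFP-high cells most among the members, at 18 to 90 counts per library.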

Other observations

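Once each gene was centred by group over the 20 libraries, Epha2 ran alongside several ephrins: r was 0.703 with Efnb2, 0.668 with Efna1 and 0.554 with Efnb1. With the EphB receptors r was -0.043 for Ephb2, 0.342 for Ephb3 and 0.364 for Ephb4. Efnb1 in turn had r = 0.556 with its receptor Ephb3 and Efna1 had r = 0.561 with Ephb4. WT mice 7 and 8 were the lowest WT mice in Epha2 and Efnb2 in both populations. In Efna1 they were the lowest in GFP-low cells but not in GFP-high cells. Correlations without those mice were not computed. These are descriptions over libraries that share 10 mice, picked from 21 pairs of members, and carry no test.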
